A study of Mus musculus with 2 samples.

Results

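Genes for the uptake of apoptotic cells were followed through the cell classes of denervated mouse hind limb muscle. The set comprised 10 of the 32287 genes counted: the receptors *Mertk*, *Axl*, *Tyro3*, *Stab1*, *Timd4*, *Lrp1* and *Mrc1* and the secreted bridging proteins *Gas6*, *Pros1* and *Mfge8*. They were chosen by symbol, and all 10 were found, each once. The study compared 2 scRNA-Seq libraries from injured muscle taken at 7 dpi, 1 for each treatment, to ask how neutralization of SPP1 (osteopontin, a secreted matrix protein) acts on the injured muscle. Both groups were male mice, 10 to 16 weeks old, with bilateral peroneal nerve injury, and received 2 μg of antibody in 10 μL into the TA muscle every 2 days. The IgG group was given goat anti-mouse IgG and the SPP1-nAb group SPP1 neutralizing antibody. The labels give the strain as C57BL/6J, whereas the study's methods name *S100GFP*-tg mice, in which the *S100B* promoter drives GFP in glia, and state that male mice were pooled without giving their number. The study's results name the TA muscle for this experiment, whereas its methods for cell isolation name both TA and GTN. The sort is described for GFP+ and GFP- live cells although the titles call both libraries GFP-positive. With 1 library per treatment there was no replicate check and no test was made, so every interval below is a 95% interval for counting error only.

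Clearance of dying cells relies on receptors that recognize phosphatidylserine on the dying cell, either directly or through a soluble bridge. *Timd4* and *Stab1* encode direct receptors. The TAM receptor tyrosine kinases *Tyro3*, *Axl* and *Mertk* bind phosphatidylserine through GAS6, and *Tyro3* and *Mertk* also through protein S, the product of *Pros1*. MFGE8 links phosphatidylserine to integrins. LRP1 and the mannose receptor MRC1 are broad endocytic receptors that take up calreticulin-marked cells, protease complexes and glycoproteins, and in denervated muscle and nerve such uptake serves to remove cell and myelin debris.

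The promoters of the genes that the comparisons below turn on are shown first, as the 250 bases before and 50 bases after the annotated start of the canonical transcript in GRCm39. *Timd4* (chromosome 11, 46701620 to 46735177) had the largest difference between the libraries in mononuclear phagocytes, and *Mrc1* (chromosome 2, 14234151 to 14336926) and *Stab1* (chromosome 14, 30860970 to 30890598) were the 2 members with the most alike pattern over cell classes. Capitals mark a match to a core motif of MAF factors.
Timd4 promoter, chr11:46701370-46701669, plus strand: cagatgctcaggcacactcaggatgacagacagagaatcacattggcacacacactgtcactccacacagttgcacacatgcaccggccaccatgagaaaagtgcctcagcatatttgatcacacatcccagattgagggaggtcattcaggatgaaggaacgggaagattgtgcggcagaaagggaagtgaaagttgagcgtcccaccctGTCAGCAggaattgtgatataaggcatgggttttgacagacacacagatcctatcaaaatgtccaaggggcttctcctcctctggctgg
Mrc1 promoter, chr2:14233901-14234200, plus strand: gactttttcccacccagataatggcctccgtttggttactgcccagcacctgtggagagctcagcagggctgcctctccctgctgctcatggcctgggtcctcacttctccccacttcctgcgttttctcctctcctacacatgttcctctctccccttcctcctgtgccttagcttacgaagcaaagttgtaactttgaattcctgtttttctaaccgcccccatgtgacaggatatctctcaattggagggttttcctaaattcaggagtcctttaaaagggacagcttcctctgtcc
Stab1 promoter, chr14:30890549-30890848, minus strand: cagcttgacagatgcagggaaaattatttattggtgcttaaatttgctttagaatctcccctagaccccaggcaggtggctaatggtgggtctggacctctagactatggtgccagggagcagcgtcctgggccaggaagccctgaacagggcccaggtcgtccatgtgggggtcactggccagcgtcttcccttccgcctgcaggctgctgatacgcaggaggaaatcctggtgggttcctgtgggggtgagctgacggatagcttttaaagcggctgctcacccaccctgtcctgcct
The core, searched as TGCTGAC on both strands, lay on the reverse strand of the *Timd4* window. It therefore reads GTCAGCA in the printed sequence, starting 39 bases before the transcript start. It occurred in 1 of the 10 members and in 4.04% of 21274 promoters of the same length. The PU.1 core GAGGAAGT was present in 3.09% of promoters, the E-box CACGTG in 7.87% and the AP-1 site TGANTCA in 7.11%, and none of these letters was found in the window of any member. These matches describe the sequence and were not tested as binding sites.

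The IgG library held 97607674 UMIs on 23779 barcodes and the SPP1-nAb library 127719916 on 25069, of which 21046 and 22282 cells were kept, with medians of 3609.5 and 4528 UMIs. Cells were assigned to classes by counting detected marker genes, and 17.4% and 14.8% of them met no class. Of these classes, 20 had at least 50 cells in each library. In those with a marker list of their own, all markers were at least 2-fold higher than in the other cells. The exception was 1 of the 6 markers of the Dcstamp-gated phagocytes, with 0 UMIs in that class. The gate selected cells by these same markers, so the enrichment is not independent support for the classes. Class names refer to these marker lists only. The share of mononuclear phagocyte-like cells was 51.1% (IgG) and 62.9% (SPP1-nAb), and that of Schwann-like cells 2.16% and 2.10%. The libraries shared 163 barcodes. Leaving these out moved no count below by more than 1.5 times. Levels are given as CPM, a gene's UMIs scaled to the summed UMIs of its class, and are compared between classes and libraries for the same gene. Levels of different genes were ranked only to choose which genes of the pathway lists to name.

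**Figure D1:**
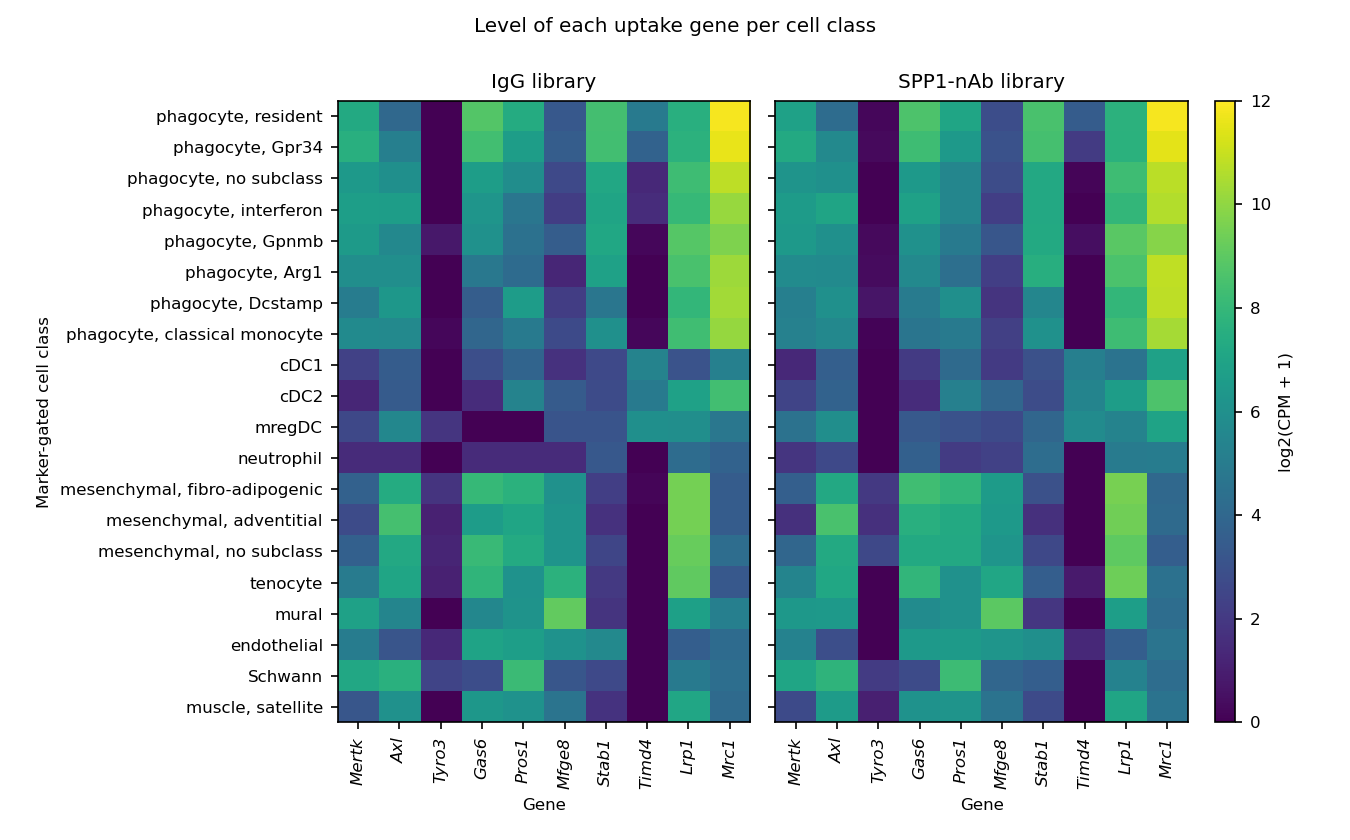
Level of each gene (columns) in 20 marker-gated cell classes (rows), as log2(CPM + 1), in the IgG library (left) and the SPP1-nAb library (right). *Mrc1* and *Stab1* are brightest in resident-gated and Gpr34-gated phagocytes, *Lrp1* in mesenchymal-like cells and tenocyte-like cells, *Mfge8* in mural-like cells, and the *Tyro3* column is dark throughout.

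Of the 10 genes, 9 had the same leading class in both libraries, which was the resident-gated phagocytes for *Gas6*, *Stab1* and *Mrc1*. The exception was *Tyro3*, a TAM receptor (chromosome 2, 119628214 to 119648738), which had its highest level in Schwann-like cells in the IgG library and in mesenchymal-like cells without a subclass in the SPP1-nAb library. These levels rested on 6 UMIs at 4.58 CPM and on 6 UMIs at 5.12 CPM. *Tyro3* was therefore barely detected at this depth, and it is left out of the comparison of the libraries. Among the other 9, the leading class was clear of the next by counting intervals in both libraries for *Axl*, *Gas6*, *Pros1*, *Mfge8* and *Mrc1*. For *Mertk*, *Stab1*, *Timd4* and *Lrp1* it was not.

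*Mertk* (GRCm39 chromosome 2, 128540729 to 128645080), the TAM receptor best known from macrophages, was highest in Gpr34-gated phagocytes. These were gated by a marker list that includes *Gpr34*, which encodes a lysophosphatidylserine receptor. They had 190 CPM in the IgG and 157 CPM in the SPP1-nAb library. Phagocytes gated by resident macrophage markers such as *Lyve1* and *Folr2* had 156 and 116 CPM. In Schwann-like cells the level was 144 CPM (124 to 166) in the first and 132 CPM (114 to 151) in the second library, so that their intervals overlapped those of the resident-gated phagocytes in both libraries. Mural-like cells, the contractile cells around vessels, had 117 and 82.9 CPM from 46 and 31 UMIs. *Mertk* was thus not confined to phagocytes, although these held 84.5% and 88.0% of its UMIs. Among Schwann-like cells, 25.5% and 28.4% had at least 1 *Mertk* UMI, or 20.2% and 19.8% after cells were thinned to 2000 UMIs. In neutrophil-like cells, which have little *Mertk*, 0.221% and 0.380% of the unthinned cells had one, with a median of 1227 and 1372 UMIs per cell against 2718 and 3163 in Schwann-like cells. The *Mertk* share of Schwann-like cells was thus above this background, and the estimated free RNA in these cells was 1.96% and 2.48% of their UMIs.

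*Axl* (chromosome 7, 25456535 to 25488329), a TAM receptor of stromal and inflamed tissues, had a different distribution. Its level was highest in adventitial mesenchymal-like cells, gated by markers such as *Pi16* and *Dpp4*, with 347 CPM and 372 CPM, above all other classes in both libraries. Schwann-like cells came next with 195 and 223 CPM, and fibro-adipogenic-like cells had 166 and 152 CPM. Among phagocytes, *Axl* was highest in those gated by interferon-response genes, at 101 and 126 CPM, and lowest in the resident-gated ones, at 15.8 and 18.0 CPM. Resident-gated phagocytes were therefore high in *Mertk* and low in *Axl*, whereas Schwann-like cells carried both receptors. In thinned Schwann-like cells of the IgG library, 6.45% held UMIs of both *Mertk* and *Axl*, beside 6.35% for the product of the separate shares. In the SPP1-nAb library the values were 7.50% and 6.81%.

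**Figure D2:**
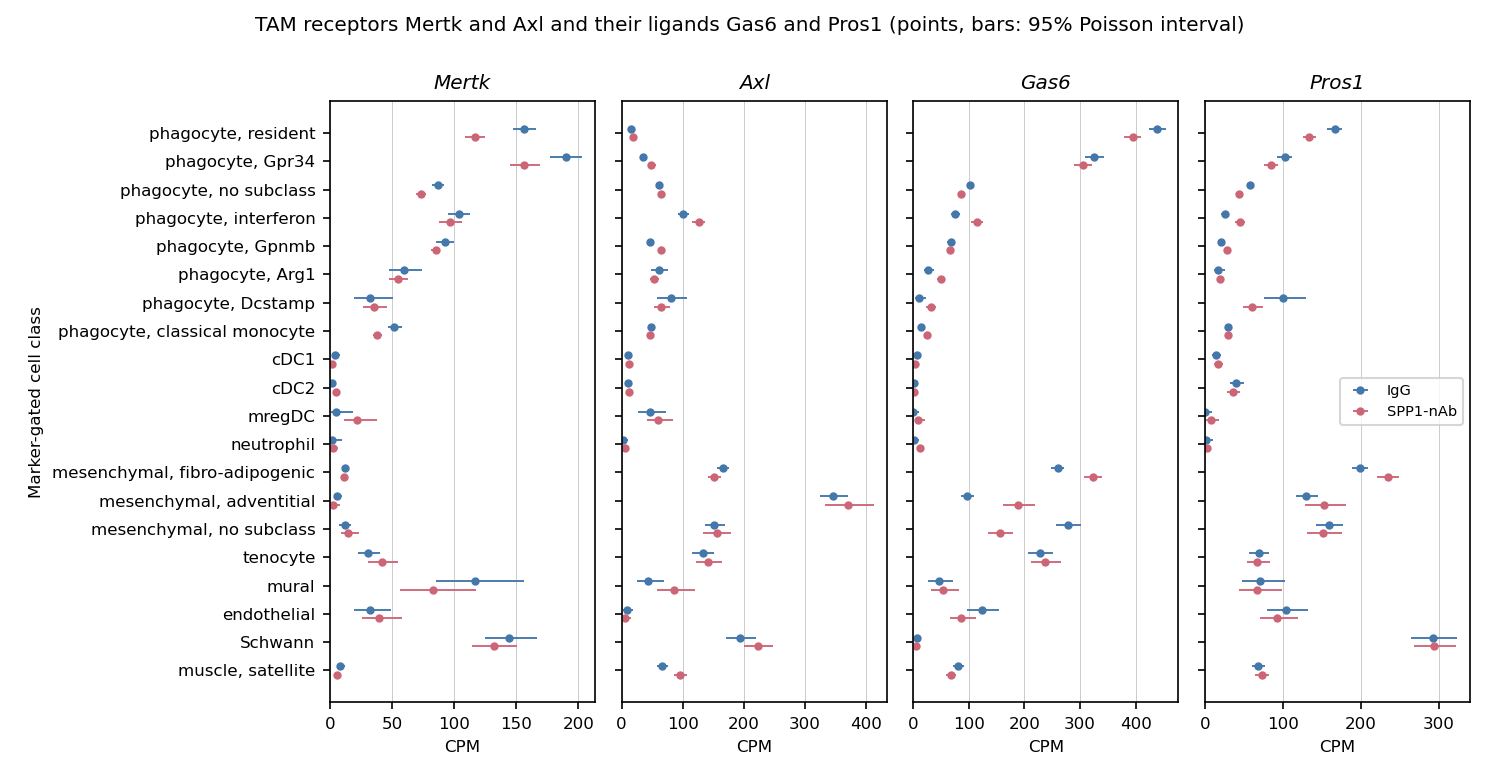
CPM of *Mertk*, *Axl*, *Gas6* and *Pros1* (panels, each with its own scale) in 20 cell classes, IgG in blue and SPP1-nAb in red, with exact Poisson 95% intervals. Schwann-like cells stand out for *Mertk*, *Axl* and *Pros1* and lie near 6 CPM for *Gas6*, and resident-gated phagocytes lead for *Gas6* and are among the lowest phagocytes for *Axl*.

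The TAM ligands were split between classes. *Gas6* (chromosome 8, 13515371 to 13544824), the ligand of all TAM receptors, was highest in resident-gated phagocytes, with 438 CPM (423 to 454) and 394 CPM (380 to 409). Gpr34-gated phagocytes had 325 and 305 CPM and fibro-adipogenic-like cells 260 and 322 CPM, and their order differed between the libraries. Tenocyte-like cells had 228 and 237 CPM, whereas Schwann-like cells had 6.11 and 5.75 CPM from 8 and 9 UMIs. *Pros1* (chromosome 16, 62674275 to 62749710), which encodes the anticoagulant and TAM ligand protein S, was the reverse in Schwann-like cells, where it had its highest level of 293 CPM (265 to 324) and 294 CPM (268 to 322). Fibro-adipogenic-like cells followed with 199 and 235 CPM. Resident-gated phagocytes had 166 and 134 CPM, mesenchymal-like cells without a subclass 159 and 152 CPM and adventitial mesenchymal-like cells 130 and 153 CPM. After thinning, 42.2% and 42.0% of the Schwann-like cells had a *Pros1* UMI, while of the neutrophil-like cells 0.221% and 0.475% had one without thinning. As a class, Schwann-like cells thus had *Mertk*, *Axl* and *Pros1* and next to no *Gas6*. The share of single cells with *Pros1* and either receptor was not counted.

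Resident-gated phagocytes had both ligands. In the IgG library 14.9% of the thinned cells held UMIs of *Gas6* and *Pros1*, beside 13.8% for the product of the separate shares, and in the SPP1-nAb library 14.5% beside 11.1%. UMIs of *Gas6* and *Mertk* occurred together in 14.7% beside 13.8% and in 11.6% beside 10.4%. The joint shares were thus above the products in both libraries, most clearly for *Gas6* and *Pros1* in the SPP1-nAb library. All thinned cells had the same number of UMIs. The difference and its cause were not tested.

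*Mfge8* (chromosome 7, 78783515 to 78798825), the bridge to integrins, had its highest level in mural-like cells, at 552 CPM (481 to 630) and 508 CPM (439 to 586). Tenocyte-like cells came next with 207 and 137 CPM, and the 3 mesenchymal classes lay between 65.9 and 96.5 CPM. Mononuclear phagocytes as a whole had 6.87 and 6.01 CPM, and in none of their subclasses did *Mfge8* exceed 10.6 CPM. The share of mural-like cells with a UMI was 67.2% and 68.8%, against 0.221% and 0.570% of neutrophil-like cells. Mural-like cells held 9.75% of all *Mfge8* UMIs in each library, whereas mesenchymal-like cells held 37.1% and 32.2% and phagocytes 14.2% and 22.8%.

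The scavenger receptors *Stab1* and *Mrc1* marked the resident end of the phagocytes. *Stab1* had 335 and 371 CPM in resident-gated and 331 and 349 CPM in Gpr34-gated phagocytes, whose intervals overlapped, and all other classes were below 182 CPM. In endothelial-like cells, which line vessels, it had 49.6 and 61.4 CPM from 31 and 39 UMIs. *Mrc1* reached 3668 and 3656 CPM in resident-gated and 3126 and 2948 CPM in Gpr34-gated phagocytes, and at least 98.4% of the thinned resident-gated cells held a UMI. Its lowest level among phagocyte subclasses was 832 and 901 CPM in those gated by markers such as *Gpnmb*, a lysosomal glycoprotein gene. Outside the phagocytes, cDC2-like cells had 327 and 404 CPM.

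*Lrp1* (chromosome 10, 127374012 to 127457017) had its highest levels in connective tissue cells. Fibro-adipogenic-like cells had 721 and 754 CPM and adventitial mesenchymal-like cells 720 and 684 CPM. Tenocyte-like cells had 537 and 650 CPM and mesenchymal-like cells without a subclass 595 and 528 CPM. Among phagocytes, Gpnmb-gated cells were highest, with 461 and 488 CPM. Resident-gated cells, with 188 and 206 CPM, and Gpr34-gated cells, with 209 and 203 CPM, were the lowest, and their order differed between the libraries. Schwann-like cells had 29.8 and 39.0 CPM.

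*Timd4*, a phosphatidylserine receptor of long-lived resident macrophages, was found in dendritic-like and resident-gated cells. Dendritic cells of the mregDC-like class had 61.9 CPM (39.6 to 92.0) and 54.5 CPM (36.7 to 77.7), cDC1-like cells 40.3 and 35.0 CPM and cDC2-like cells 30.0 and 41.3 CPM. The mregDC-like levels rested on 24 UMIs in 7 of 81 cells and 30 UMIs in 7 of 95 cells. Their intervals count UMIs as independent and can be too narrow for so few cells. Resident-gated phagocytes had 28.6 CPM in the IgG and 10.2 CPM in the SPP1-nAb library. Neutrophil-like, Schwann-like, mural-like and satellite-like cells held 0 *Timd4* UMIs in both libraries, which allows up to 8.03 CPM in the smallest of these classes, taken as 3 UMIs.

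Patterns were compared over the 20 classes by Pearson's r of log2(CPM + 10), averaged over the libraries, as a description. The points share library, depth and, for the phagocyte subclasses, a lineage. *Stab1* and *Mrc1* were the most alike members, with r = 0.86. In all, 7094 genes reached 50 CPM in a class, and members among them were passed over. Those most like *Mrc1* were *Clec4a1* (r = 0.98), *Snx8* and *Clec4a3*, and those most like *Stab1* were *Cbr2* (r = 0.96), *Il10* and *Ms4a7*. *Cbr2* was itself a marker of the resident gate, and *Flt3*, the gene most like *Timd4* (r = 0.91, followed by *Kdm2b* and *Tbc1d4*), was one of the cDC2 gate. *Mfge8* was closest to *Msx1* (r = 0.96), *Msrb3* and *Cbx6*, *Pros1* to *Hdac8* (r = 0.92), *Wwox* and *Chd9*, and *Gas6* to *Lrp6* (r = 0.89), *Igf1* and *Slc38a6*. The genes most like *Mertk* were *Rab14* (r = 0.88), *Gna12* and *Dhrs3*, those most like *Axl* were *Ahnak2* (r = 0.86) and *Mmp14*, and those most like *Lrp1* were *Nupr1* (r = 0.89), *Asph* and *Cd302*.

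Between the libraries, 9 members had at least 100 UMIs in all mononuclear phagocytes pooled. *Timd4* was the only one past 1.5-fold, and it was lower in the SPP1-nAb library. None was past 1.5-fold higher. Of all 12156 genes with at least 100 UMIs in these cells, 2.38% were past 1.5-fold higher and 8.12% past 1.5-fold lower. The median log2 ratio of SPP1-nAb over IgG was -0.19 over the 9 members and -0.04 over all genes. Because the subclasses of the phagocytes differed in their shares between the libraries, each gene was also compared with the subclass shares held equal. Resident-gated cells made up 9.03% of all IgG and 6.66% of all SPP1-nAb cells, Gpnmb-gated cells 5.93% and 15.9%.

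For the TAM ligands the difference was smaller with subclass shares held equal. *Gas6* had levels of 152 CPM (IgG) and 110 CPM (SPP1-nAb) in phagocytes, a log2 ratio of -0.47 (-0.52 to -0.42), which was -0.06 (-0.11 to -0.01) with equal shares. *Pros1* had 65.3 and 46.9 CPM, a log2 ratio of -0.48, and -0.16 (-0.24 to -0.09) with equal shares. *Mertk*, with 104 and 79.5 CPM, went from -0.39 (-0.45 to -0.33) to -0.25 (-0.31 to -0.20), so that part of its lower level lay within the subclasses. *Axl* was on the other side, at 52.2 and 59.1 CPM, and its log2 ratio of 0.18 was 0.19 with equal shares. *Stab1* and *Mrc1* turned from -0.07 and -0.17 pooled to 0.13 and 0.08, and *Lrp1* from 0.21 to 0.03. *Mfge8* had -0.19 and -0.27. All of these values were below 1.5-fold, that is within 0.58 on the log2 scale.

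**Figure D3:**
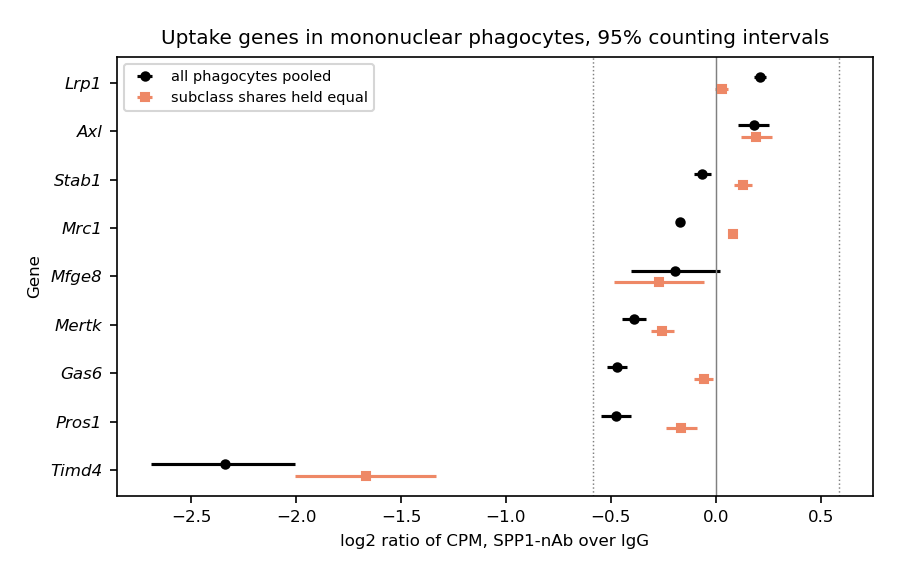
Log2 ratio of CPM (SPP1-nAb over IgG) of 9 genes in mononuclear phagocytes, pooled (black circles) and with subclass shares held equal (orange squares), with 95% counting intervals and dotted lines at 1.5-fold. *Timd4* lies far below the line in both forms, at -2.34 and -1.67, and the other genes lie between the lines.

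*Timd4* had 298 UMIs in IgG and 95 in SPP1-nAb phagocytes, or 6.50 and 1.28 CPM, a log2 ratio of -2.34 (-2.69 to -2.00) that was -1.67 (-2.00 to -1.33) with equal shares. In resident-gated phagocytes it had 208 and 71 UMIs, with a log2 ratio of -1.49 (-1.90 to -1.09). In this class 4.21% of 8433 genes were past 1.5-fold lower, and *Timd4* was the only member of 9 to be so. Gpr34-gated phagocytes had 12.8 and 3.20 CPM from 57 and 14 UMIs, below the 100 UMIs needed for a call. In the dendritic classes the interval of its log2 ratio included 0, at -0.20 (-0.71 to 0.30) in cDC1-like, 0.46 (-0.02 to 0.95) in cDC2-like and -0.18 (-1.01 to 0.65) in mregDC-like cells. The last value rested on 24 and 30 UMIs in 7 cells of each library, under the 100 UMIs needed for a call, and after thinning the first 2 turned to 0.42 and -0.42. Of all *Timd4* UMIs in kept cells, phagocytes held 55.8% in the IgG and 31.0% in the SPP1-nAb library.

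The level of *Timd4* went with the number of resident markers a phagocyte showed, and cells with many such markers were fewer in the SPP1-nAb library. Phagocytes with 5 or 6 of the 8 markers were 7.15% of the IgG phagocytes (768 cells) and 2.50% of the SPP1-nAb phagocytes (351 cells), and those with 7 or 8 were 1.27% (136 cells) and 0.328% (46 cells). With 7 or 8 markers, *Timd4* had 78.8 CPM (57.7 to 105) and 69.6 CPM (40.6 to 111), overlapping between the libraries. With 5 or 6 markers it had 53.8 CPM (46.1 to 62.5) and 29.4 CPM (21.9 to 38.7), and with 3 or 4 markers 7.98 and 1.40 CPM. The lower *Timd4* level in the SPP1-nAb library was therefore seen at intermediate marker numbers and was not detectable at this depth among the cells with the most markers. Median depth of the resident-gated cells was 3719.5 and 4436.5 UMIs, and with cells thinned to 2000 UMIs before gating the log2 ratio of *Timd4* in this class was -1.21.

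*Mertk* was lower in the SPP1-nAb library at 0 to 2 markers, with 82.8 CPM (79.7 to 85.9) and 70.8 CPM (68.6 to 73.0), and at 3 or 4, with 150 and 104 CPM. At 5 or 6 markers it was also lower, with 176 CPM (162 to 191) and 151 CPM (133 to 170), but the intervals overlapped. They rested on 559 and 261 UMIs, against 2703 and 4086 at 0 to 2 markers. At 7 or 8 markers, with 168 and 188 CPM from 98 and 46 UMIs, the intervals overlapped as well. A drop confined to cells with few markers is therefore not shown. *Gas6* was higher with more markers in both libraries, from 59.3 and 51.8 CPM at 0 to 2 markers to 608 and 688 CPM at 7 or 8. *Stab1* was 113 and 117 CPM at 0 to 2 markers and 398 and 434 CPM at 7 or 8. In 2 unsupervised clusters, resident-gated phagocytes were the most common class in both libraries, which need not mean most of the cells. In the smaller of them, with 852 IgG and 271 SPP1-nAb cells, *Timd4* had 71.7 and 55.2 CPM and was detected in 17.7% and 16.2%. In the larger, with 3012 and 2513 cells, it had 7.35 and 2.15 CPM and was detected in 1.99% and 0.836%. In a cluster led by phagocytes without a subclass, 21 *Timd4* UMIs were found in 1005 cells of the IgG library and none in 646 of the SPP1-nAb library.

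**Figure D4:**
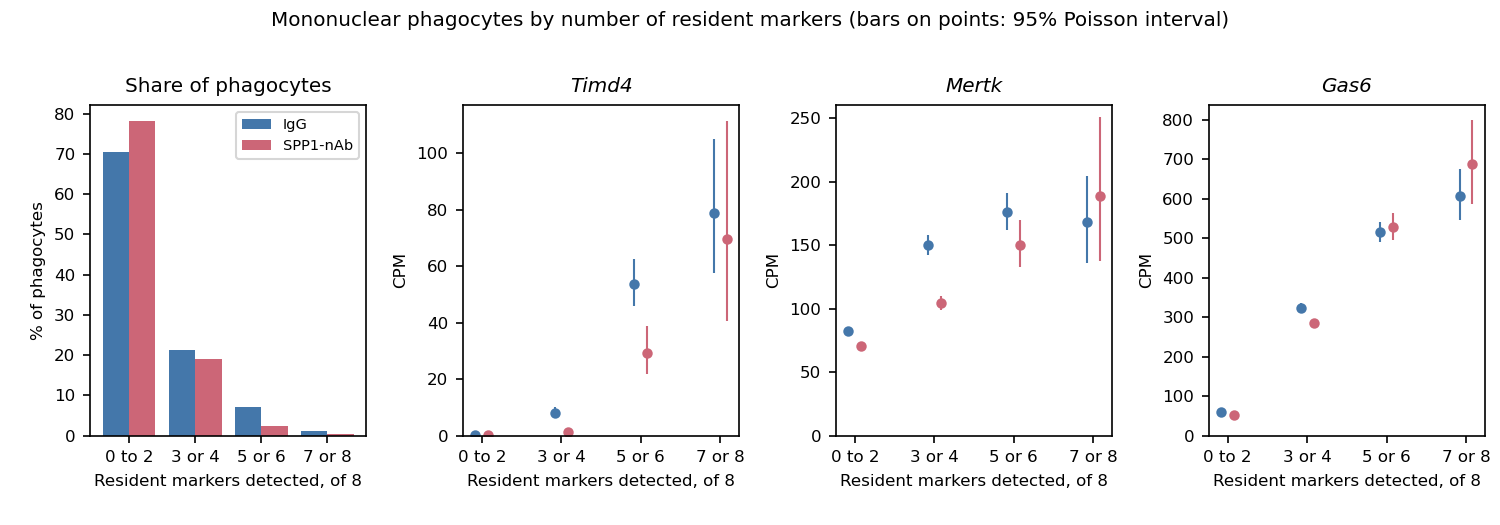
Share of mononuclear phagocytes by number of detected resident markers (first panel, bars) and CPM of *Timd4*, *Mertk* and *Gas6* in the same cells (points with exact Poisson 95% intervals), IgG in blue and SPP1-nAb in red. *Timd4* and *Gas6* are higher with more markers in both libraries, whereas *Mertk* in the IgG library is 176 CPM at 5 or 6 markers and 168 CPM at 7 or 8. The libraries are apart for *Timd4* at 3 to 6 markers and overlap at 7 or 8.

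Over single classes, 98 of the 200 pairs of member and class had at least 100 UMIs. Of these, 9 were past 1.5-fold higher and 4 past 1.5-fold lower in the SPP1-nAb library, while over all genes 3.95% of 110728 pairs were higher and 3.99% lower. *Gas6* accounted for 5 of the 13. *Timd4* in resident-gated phagocytes was the only one of the 13 that stayed past 1.5-fold under every alternative that gave it a value, and each of the others fell short of it under 1 to 5 of them. In phagocytes gated by markers such as *Arg1*, an arginase of wound macrophages, 3 of 6 members were higher, where 3.81% of all genes were. The median log2 ratio was 0.31 over the members and 0.05 over all genes. *Gas6* had 26.8 and 49.0 CPM there (37 and 176 UMIs), a log2 ratio of 0.87 (0.35 to 1.42). *Stab1* had 116 and 181 CPM, 0.64 on the log2 scale, and *Mrc1* 1202 and 1840 CPM, 0.61. *Stab1* was below 1.5-fold without doublet removal (0.49), with the 20% highest doublet scores removed (0.58) and after thinning (0.51), *Mrc1* with 1 fewer marker (0.43), with median ratio scaling (0.56) and after thinning (0.41), and *Gas6* with 1 fewer marker (0.57). These cells numbered 251 and 601.

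Interferon-gated phagocytes had 2 of 7 members higher, where 3.6% of all genes were. *Gas6* had 75.4 and 114 CPM (log2 0.60, 0.41 to 0.79) and *Pros1* 25.2 and 45.0 CPM (log2 0.84, 0.51 to 1.17), and the median was 0.32 over the members and 0.02 over all genes. In classical monocyte-like cells *Gas6* had 14.8 and 24.0 CPM, a log2 ratio of 0.70 (0.36 to 1.04), the only one of 7 members past 1.5-fold, where 2.04% of all genes were higher. *Gas6* was thus past 1.5-fold higher in 3 phagocyte subclasses. It was not so in the Gpnmb-gated cells, where its level was also low (67.0 and 66.6 CPM, log2 -0.01), nor in phagocytes without a subclass (102 and 86.2 CPM, log2 -0.24), and its log2 ratio was -0.15 in the resident-gated and -0.09 in the Gpr34-gated cells, where its level was highest. In Dcstamp-gated phagocytes *Gas6* had 10.7 and 31.1 CPM (log2 1.54, 0.32 to 3.06). This rested on 6 and 50 UMIs, under the 100 needed for a call. Without doublet removal the ratios of *Gas6* and *Pros1* in interferon-gated cells were 0.48 and 0.42 and that of *Gas6* in classical monocyte-like cells 0.46, all below 1.5-fold. So were *Gas6* in interferon-gated cells with median ratio scaling (0.58) and in classical monocyte-like cells after thinning (0.49). *Pros1* was lower in the Dcstamp-gated phagocytes, whose marker list includes *Dcstamp*, a gene of cell fusion. There *Pros1* had 99.6 and 61.0 CPM (56 and 98 UMIs, log2 -0.71), the only one of 4 members, where 5.76% of all genes were lower. The ratio was -0.53 without doublet removal and -0.42 with 1 fewer marker.

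**Figure D5:**
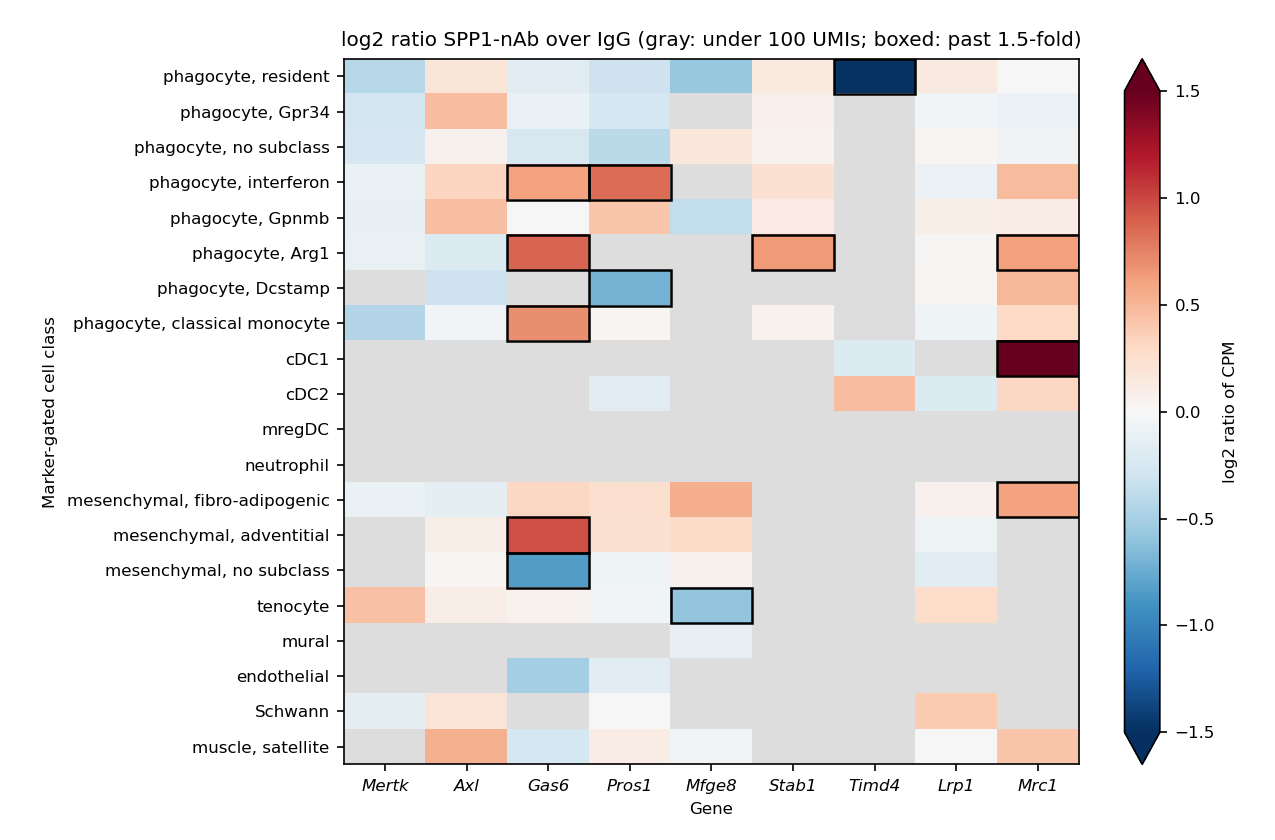
Log2 ratio of CPM (SPP1-nAb over IgG, color scale from blue, lower, to red, higher) of 9 genes in 20 cell classes. Gray cells had under 100 UMIs and black boxes mark the 13 pairs past 1.5-fold, of which 5 lie in the *Gas6* column.

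In connective tissue, *Gas6* was higher in adventitial mesenchymal-like cells, at 96.8 and 189 CPM (log2 0.96, 0.67 to 1.25), the only one of 5 members past 1.5-fold, where 4.46% of all genes were higher. The ratio was 0.35 with Leiden clusters, below 1.5-fold, and 1.93 after thinning. It was lower in mesenchymal-like cells without a subclass, at 278 and 155 CPM (log2 -0.84, -1.09 to -0.60), where 6.54% of all genes were lower. The 2 classes lay in opposite directions, and the second had a log2 ratio of -0.01 with 1 more marker and turned to 0.04 when cells were thinned to 2000 UMIs before gating. Median depth was 4926 and 8246.5 UMIs in the first class and 4003 and 5898 in the second, and its part in these ratios was not tested. *Mrc1* had 10.2 and 15.4 CPM in fibro-adipogenic-like cells, a log2 ratio of 0.60 (0.11 to 1.09) where 5.1% of all genes were higher, at a level close to the 12.5 and 31.4 CPM of neutrophil-like cells. The estimated free RNA alone would give 13.1 and 18.1 CPM, above the measured level in both libraries, so a level above background is not shown. The origin of these UMIs was not tested. The ratio was below 1.5-fold under 5 alternatives (down to 0.48). *Mfge8* was lower in tenocyte-like cells, at 207 and 137 CPM (log2 -0.59, -0.87 to -0.33), just past 1.5-fold, where 3.54% of all genes were lower, and was below it under 3 alternatives (-0.58 to -0.47).

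In dendritic cells, *Mrc1* was higher in the cDC1-like class, at 36.2 and 114 CPM from 63 and 219 UMIs, a log2 ratio of 1.66 (1.25 to 2.08), where 4.3% of all genes were higher. The complement genes *C1qa*, *C1qb* and *C1qc*, which are macrophage genes, were also higher in this class. They had 41.4 and 79.9, 52.4 and 102, and 21.9 and 53.2 CPM, and were picked after their values were seen. Members of the set lay on both sides in this class, all under 100 UMIs. *Mertk* had 7 and 3 UMIs and *Gas6* 11 and 6, whereas *Stab1* had 9 and 13 and *Lrp1* 13 and 43. The cause of the *Mrc1* ratio was not tested. The gate set no limit on phagocyte markers in this class. The *Mrc1* ratio was 0.46 without doublet removal, 1.26 with the 20% highest doublet scores removed, 1.00 with 1 fewer marker and 2.95 after thinning, and it turned to -0.45 when cells were assigned by clusters in place of the gate. The estimated free RNA alone would give 11.6 and 18.7 CPM, and with it removed the ratio was 1.96. No member was past 1.5-fold in Schwann-like cells, in which 4 were compared (*Mertk*, *Axl*, *Pros1* and *Lrp1*), and 1.22% of all genes were higher and 2% lower. Their log2 ratios were -0.13 (-0.42 to 0.16), 0.20 (-0.04 to 0.44), 0.00 (-0.19 to 0.20) and 0.39 (-0.21 to 1.01).

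The rest of the uptake pathway was read from lists of other genes in mononuclear phagocytes. None of 11 measured receptors among 19 was past 1.5-fold in the pooled cells, nor with subclass shares held equal. The highest of them, the lipid scavenger receptor *Cd36* and the macrophage scavenger receptor *Msr1*, had 655 and 546 CPM and 394 and 304 CPM, and were also those with the lowest ratios (-0.26 and -0.38). *Cd300lb* (73.9 and 104 CPM, log2 0.49) and the integrin *Itgav* (150 and 196 CPM, log2 0.39), through which MFGE8 binds, had the highest ratios. With equal shares *Cd36* was at -0.50 and *Msr1* at -0.45. Single subclasses differed: in interferon-gated cells *Msr1* (log2 -1.10), *Cd300lf* (-1.06) and *Olr1* (-0.91) were past 1.5-fold lower and *Cd300lb* (0.68) higher. In classical monocyte-like cells these genes were within 1.5-fold (-0.42, -0.44, -0.42 and 0.44). Of all genes in interferon-gated cells, 3.6% were past 1.5-fold higher. The share that was lower is not given here, so the lower genes are not read as a result about the list.

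Of 10 measured bridges and opsonins, 2 were higher and 1 was lower, where 2.38% of all genes were higher and 8.12% lower in these cells. Thrombospondin *Thbs1*, which links dying cells to CD36 and integrins, had 605 and 996 CPM (log2 0.72, 0.70 to 0.74), and *Edil3*, a relative of *Mfge8*, 6.57 and 11.0 CPM (log2 0.74). *Ccn1* was lower, at 4.56 and 1.73 CPM (log2 -1.40). Its highest level was in tenocyte-like cells, with 809 and 596 CPM. Free RNA was estimated at 1.34% and 1.83% of phagocyte UMIs, and its part in the *Ccn1* ratio was not tested. With subclass shares held equal, *Edil3* (0.68) and *Ccn1* (-0.998) stayed past 1.5-fold and *Thbs1*, at 0.49 (0.47 to 0.51), did not, and in interferon-gated cells the log2 ratio of *Thbs1* was -0.32. Complement *C1qa* (1725 and 1510 CPM) and *C1qb* (2130 and 2027 CPM) and galectin *Lgals3* (2297 and 3074 CPM, log2 0.42) were within 1.5-fold.

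Of 9 find-me and stay-away genes, 3 were higher and 2 lower, against the same 2.38% and 8.12% of all genes. *Sphk1*, which makes sphingosine 1-phosphate, had 3.21 and 7.14 CPM (log2 1.15), *Pecam1* 8.27 and 14.2 CPM (log2 0.78) and *P2ry2*, a receptor that senses nucleotides, 3.45 and 5.27 CPM (log2 0.61). The sphingosine 1-phosphate receptor *S1pr1* was lower at 33.9 and 18.3 CPM (log2 -0.89), as was the fractalkine receptor *Cx3cr1* at 92.5 and 60.3 CPM (log2 -0.62), so that the sensing receptors lay on both sides. With subclass shares held equal, *Sphk1* (0.98) and *Pecam1* (0.94) stayed past 1.5-fold, whereas *P2ry2* (0.44), *S1pr1* (-0.57) and *Cx3cr1* (-0.45) did not. The don't-eat-me pair *Cd47* (413 and 361 CPM) and *Sirpa* (286 and 275 CPM) was within 1.5-fold.

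Of 13 engulfment genes, the transglutaminase *Tgm2* was higher (55.7 and 84.9 CPM, log2 0.61) and the adhesion kinase *Ptk2* lower (12.9 and 7.70 CPM, log2 -0.75), and *Crk* had a log2 ratio of 0.17. For this and the following lists, 2.38% of all genes in these cells were higher and 8.12% lower. Single genes past 1.5-fold are therefore not read as results about a list. With subclass shares held equal *Tgm2* was at 0.41 and *Ptk2* at -0.44, both below 1.5-fold, and in interferon-gated cells *Tgm2* was at -0.39. The Rac activator *Dock2* had 703 and 535 CPM (log2 -0.39) and *Rac1* 307 and 314 CPM. Of 12 genes of the response to engulfed cells, the polyamine enzyme *Odc1* was higher (135 and 207 CPM, log2 0.62, or 0.48 with equal shares), the cholesterol exporter *Abcg1* had a log2 ratio of 0.51 and *Il10* one of -0.51, and *Pparg* one of -0.10. *Abca1*, the other cholesterol exporter, had 387 and 458 CPM and *Ucp2*, a mitochondrial carrier, 401 and 435 CPM. None of 5 genes in the list for receptor shedding and chaperoning, which also held *Socs1* and *Socs3*, was past 1.5-fold. Among them were *Adam17*, the protease that cleaves MERTK (145 and 140 CPM), *Adam10* (log2 0.06), *Lrpap1*, the LRP1 chaperone (82.3 and 94.0 CPM), and *Socs3* (258 and 196 CPM, log2 -0.40). Median log2 ratios of the 6 lists lay between -0.12 and 0.11, beside -0.04 over all genes.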

How the data were processed

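The 2 scRNA-Seq libraries, 1 per treatment, were analysed. The authors deposited counts of UMIs per gene and barcode from Cell Ranger, as whole numbers without normalization. The submitters' processing notes name version 8.0.0 and GRCm39, whereas the file headers name 9.0.1. Ambient RNA had not been removed. Total UMIs were 97607674 (IgG) and 127719916 (SPP1-nAb).

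Barcodes with more than 200 genes and under 10% mitochondrial UMIs were kept, and the 10% with the highest doublet scores (2 simulated doublets per barcode, 30 neighbors, 30 principal components of 2000 genes) were removed per library. A cell entered a class with at least 3 detected markers (4 of 8 for phagocytes, 2 for muscle subclasses). No other group of lineages could have more than 50% of that number. Phagocytes, neutrophils and dendritic cells formed a single group, so dendritic-like cells could also carry phagocyte markers. Mesenchymal cells and tenocytes shared a group, as did T, NK and B cells. cDC1-like cells also needed *Xcr1* or *Clec9a*, and cDC2-like cells *Cd209a* or *Flt3*. A phagocyte had fewer than 2 cDC2 markers, and a subclass was the list with the highest detected fraction. These thresholds were set after marker counts had been seen, and a list of MHC class II genes was not used as a gate because most phagocytes express its genes.

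UMIs were summed per class and library. A gene was counted as higher or lower past 1.5-fold with at least 100 UMIs over both libraries. Intervals were exact Poisson (levels), exact binomial (ratios, shares) or, with subclass shares held equal, a normal approximation from the counts, and cover counting error only. Values with subclass shares held equal weight each subclass by its mean UMI share; for the pathway lists this was added after the data were seen. Cells were thinned to 2000 UMIs for shares. Scripts used Python 3.11.15, numpy 2.4.6, scipy 1.17.1, scanpy 1.11.5 and scikit-learn 1.9.0, and were tested on simulated data. Alternatives were other filters, doublet shares, gates, Leiden clusters (resolution 1, 20 neighbors), median-ratio scaling, removal of free RNA, thinning and UMI minimums. Named genes were all members, per pathway list the 2 with the largest ratios per direction and the 2 highest, and the 3 most alike genes per member with at least 200 UMIs, of which 1 is not reported here. Other genes past 1.5-fold were also named, as were *C1qa*, *C1qb* and *C1qc* in cDC1-like cells, which were chosen after their values were seen. The members and lists were chosen with earlier results of these data known. Positions and promoters are those of GENCODE M39 (GRCm39), in which 31674 of 32287 identifiers were found.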

Additional observations from a re-analysis of the deposited data

How the results depend on the processing

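In mononuclear phagocytes the counts of 0 members higher and 1 lower (*Timd4*) held under every alternative run, and the log2 ratio of *Timd4* stayed between -2.51 and -1.97 there and between -1.63 and -1.21 in resident-gated phagocytes. The number of members with the same leading class was between 8 and 10. The 9 pairs of member and class that were higher became 4 with Leiden clusters, 23 with a minimum of 20 UMIs and 44 with none. The 4 lower pairs became 2 with 1 more marker, 2 with Leiden clusters, 1 after thinning, 9 with a minimum of 20 UMIs and 20 with none. Of the 107 ratios of a member in a class or in all phagocytes, 35 turned their direction under at least 1 alternative, 20 of them after thinning and 13 with Leiden clusters. Among these 35, 2 had been past 1.5-fold, *Mrc1* in cDC1-like cells (-0.454 with Leiden clusters) and *Gas6* in mesenchymal-like cells without a subclass (0.0447 after thinning), and the cause was not tested. Thinning and Leiden clusters moved the most single ratios, 42 and 26, and removal of free RNA moved 0. Leaving out shared barcodes, chosen after seeing the data, also moved 0. Depth limits *Tyro3* throughout and *Timd4* outside the resident-gated, cDC1-like and cDC2-like cells. No paired analysis was possible because each treatment had 1 library.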

Other observations

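Several uptake genes outside the member set had their highest levels in cells outside the mononuclear phagocyte classes. Satellite-like cells led for *Megf10*, an engulfment receptor also known from muscle stem cells, with 206 CPM in the IgG and 160 CPM in the SPP1-nAb library, and Schwann-like cells followed with 39.7 and 28.1 CPM. Endothelial-like cells led for *Cd36* (3433 and 2373 CPM), *Scarb1*, a lipoprotein receptor (299 and 315 CPM), and *Stab2*, the relative of *Stab1* (78.4 and 51.9 CPM). Neutrophil-like cells led for the phosphatidylserine-binding *Cd300lf* with 568 and 560 CPM, and cDC1-like cells for *Havcr2*, which encodes TIM-3, with 339 and 402 CPM.

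Schwann-like cells led for several genes of the engulfment machinery in both libraries together. The adaptor *Gulp1* had 518 and 456 CPM, where mesenchymal-like cells without a subclass came next with 266 and 254 CPM. The Rac activator *Dock1* had 275 and 259 CPM, close to the 241 and 242 CPM of endothelial-like cells. *Rubcn*, a gene of LC3-associated phagocytosis, had 129 and 147 CPM, where the next class, endothelial-like cells, had 30.4 and 25.2 CPM. *Itgav* also led there, with 312 and 325 CPM, as did *Adam10* with 232 and 221 CPM. The next classes were Arg1-gated phagocytes for *Itgav*, with 218 and 258 CPM, and endothelial-like cells for *Adam10*, with 168 and 206 CPM. These genes were picked from the lists by their leading class after their levels were seen, and the levels are descriptions of 455 and 469 cells without a test.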
